A study of Homo sapiens with 24 samples.

Results

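Of the 2835235 bins of 1000 bp in the deposited OG-seq table, 346 were low again and again: their value lay at or below the 5th percentile of the column in at least 6 of the 12 columns. OG-seq labels 8-oxoguanine (OG), an oxidized form of guanine, with biotin, enriches the labeled DNA fragments on streptavidin and sequences them along with input DNA. The value of a bin is the number of OG reads minus the scaled number of input reads. The bins were therefore selected on these values, and the levels of the 346 bins in the 12 columns are a description without a test. Chromosome X, a chromosome 15 segment from 60000000 to 90000000 and bins at 0 in every column were left out, which left 2628918 eligible bins, so that the members were 0.0132 % of them. The genome build was GRCh38.

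OG arises wherever reactive oxygen meets guanine, the base most easily oxidized in DNA. OGG1 is the glycosylase that cuts OG out opposite cytosine, and MUTYH removes adenine that polymerases have put opposite OG. A fragment without guanine can hold no OG, and guanine is less common in AT-rich DNA and in much of the intergenic genome.

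The cells were HAP1, a near-haploid human cell line that descends from a chronic myeloid leukemia line. All groups shared the HAP1 background, and the labels name no treatment. The groups were WT, MUTYH-/, OGG1-/ and DKO, in which both glycosylases are lost. The knockouts were made by CRISPR-Cas9, each as clones, and DKO was derived from an OGG1-/ clone, so that OGG1-/ and DKO share an origin. Each genotype had 3 pull-down columns with their input subtracted (n = 3), and the sample titles name 2 clones per genotype, so that 2 of its 3 samples came from the same clone. Which columns share a clone is not known here. The n of 3 therefore counts samples and not clones, and the SDs and p-values measure the spread between these samples, which may be in part technical. In every column the values could be resolved into whole OG reads and whole reads of a pair of input runs. The mean bin of a column held 21 to 40.2 OG reads, with the lowest depth in WT, and 27.7 to 35.8 input reads.

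The members differed little in how often they were low. 301 members were low in exactly 6 columns, 41 in 7, 3 in 8 and 1 in 9, and 2015 eligible bins fell just outside the rule with 5 columns. The bins with 6 columns had a mean value of -5.26 and a GC content of 34.7 %, and those with 5 columns a mean value of -3.15 and a GC content of 35.2 %. The transition was thus gradual. 345 of the 346 members had at least 1 column with a value above 0, and only 1 was below 0 in all 12 columns.

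The sequences of the members were searched for what they share. All 24-mers, on either strand, were listed, and 525 of them occurred in at least 10 members. The most widespread was held by 20 members. 74 members (21.4 %) held at least 1 of these shared 24-mers, against 1.41 % of the eligible bins. The 24-mers were selected for being frequent in members, so that the first share is a description.

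Some other eligible bins hold a shared 24-mer but did not meet the rule. None of them is low in 6 or more columns, so their values are not independent of the rule. There were 37111 such bins, with a mean GC content of 38 %. In WT they had a mean value of 3.79 ± 1.32 (SD, n = 3), against 6.48 ± 0.580 for eligible bins of the same GC content and 7.63 ± 0.672 for all eligible bins. In MUTYH-/ the mean was 2.58 ± 2.05 against 7.18 ± 0.232 at the same GC content. In OGG1-/ it was 3.25 ± 0.988 against 7.46 ± 0.586, and in DKO 3.40 ± 0.383 against 7.89 ± 0.619. The bins with shared 24-mers were lower in each of the 12 columns. The largest gap was in replicate 1 of MUTYH-/, at 0.248 against 7.32, and the smallest in replicate 2 of WT, at 5.30 against 6.46.

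The other bins with a shared 24-mer were at or below the 5th percentile in 9.68 ± 2.5 % of cases in WT and 11.9 ± 3.32 % in MUTYH-/, with 11 ± 1.58 % in OGG1-/ and 11.3 ± 0.367 % in DKO, against 5.01 to 5.04 % of all eligible bins. They had 28.1 OG reads and 34.6 input reads per column, so that OG reads were below the eligible mean of 32.4 and input reads were slightly above the eligible mean of 33.0. Eligible bins of 37.5 to 38.3 % GC, near their mean GC content, had 30.4 OG and 32.4 input reads. How far the mapping of repeated sequence contributes was not tested.

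Members were AT-rich. Their mean GC content was 34.9 ± 3.57 % (SD over 346 bins), against 40.9 ± 7.44 % in eligible bins, and 335 members lay below the eligible mean. The lowest GC content of a member was 26.5 % and the highest 52.2 %. CpG dinucleotides, where methylated cytosine mostly lies, numbered 4.66 per bin in members and 9.91 in eligible bins. A G4 motif, 4 runs of at least 3 G apart by 1 to 7 bases, was present on either strand in 8 members (2.31 %), against 9.67 % of eligible bins. Where the values were first centred within 20 strata of GC content in each column, 200 bins met the rule. Of these, 53 were members, and their mean GC content was 47.4 %, so that the AT-rich composition of the members rests on values without that step.

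The density of members did not fall evenly with GC content. It stayed between 25.1 and 38.6 per 100000 bins in each 1 % step of GC content from 27 to 38 %. It was 16.3 between 38 and 39 %, 4.40 between 39 and 40 % and 2.05 between 40 and 41 %. Of the 44 members with a GC content of 37 to 38 %, 24 held a shared 24-mer. Among bins without a shared 24-mer, the density fell from 34.8 at 34 to 35 % GC to 22.4, 18.7, 13.2 and 7.0 in the next steps. The 24-mers were listed because members hold them, which by itself favors a lower density in bins without them. Nothing is read from this difference.

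**Figure D1:**
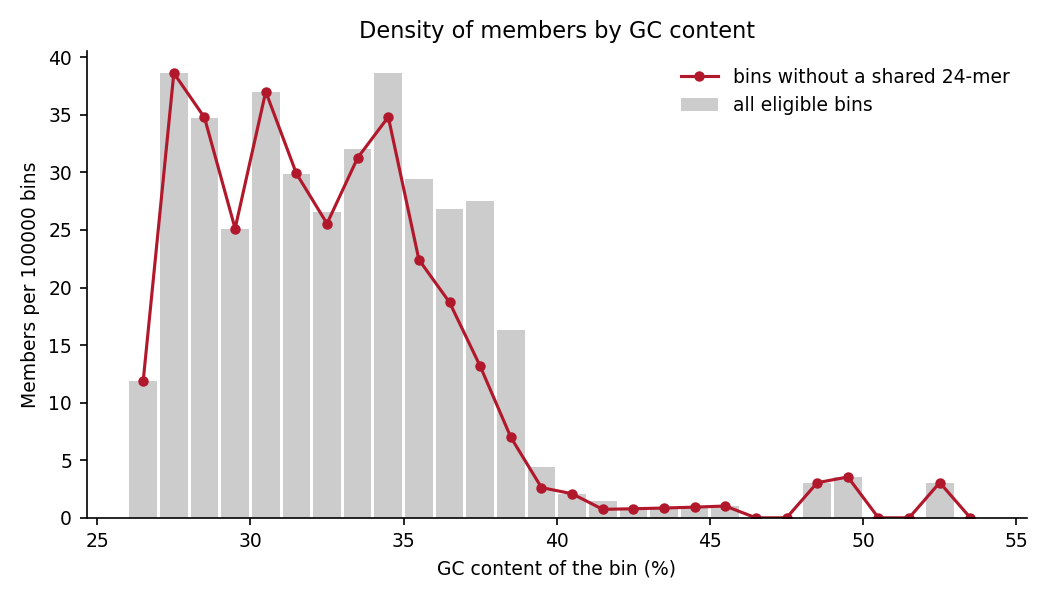
Members per 100000 eligible bins (y axis) in 1 % steps of the GC content of a bin (x axis). Grey bars are all eligible bins and the red line those without a shared 24-mer. The 2 differ most between 35 and 39 % GC, where 27.5 members per 100000 bins at 37 to 38 % compare with 13.2 without the shared 24-mers. The choice of the 24-mers from members favors such a difference.

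A few members departed from this picture. The member with the highest GC content, at 52.2 %, was chr20:31986001-31987000 in an intron of XKR7, a member of the XK family of membrane proteins. It was low in 7 columns and had 34.3 OG and 63.1 input reads per column. The centre of this bin is shown because it departs from the AT-rich composition of the other members, with G and C in capitals.

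chr20:31986421-31986580, plus strand: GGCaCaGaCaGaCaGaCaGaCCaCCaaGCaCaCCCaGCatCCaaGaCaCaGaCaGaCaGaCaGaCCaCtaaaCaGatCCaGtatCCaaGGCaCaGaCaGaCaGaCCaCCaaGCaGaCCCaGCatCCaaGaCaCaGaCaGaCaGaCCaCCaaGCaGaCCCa

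The centre of the XKR7 bin is a tandem repeat of short units and held 86 G and C bases of 160.

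Members had fewer OG reads and more input reads than eligible bins. Members had 21.5 OG reads per column against 32.4 in eligible bins, which is 0.664 times as many, and 37.6 input reads against 33.0, which is 1.14 times as many. OG reads were below the eligible mean in 335 members and input reads were above it in 257, and 246 members showed both. The ratio of OG to input reads was 0.572 in members and 0.981 in eligible bins. Eligible bins of 34.8 to 35.8 % GC, near the member mean of 34.9 %, had 28.2 OG and 30.9 input reads, a ratio of 0.911. Against them the gap in OG reads was smaller and the gap in input reads larger. Members with a shared 24-mer had 22.9 OG and 39.7 input reads, and those without one 21.1 and 37.0. Over the members, OG reads ranged from 10.1 to 68.1 and input reads from 24.3 to 103.4 per column.

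**Figure D2:**
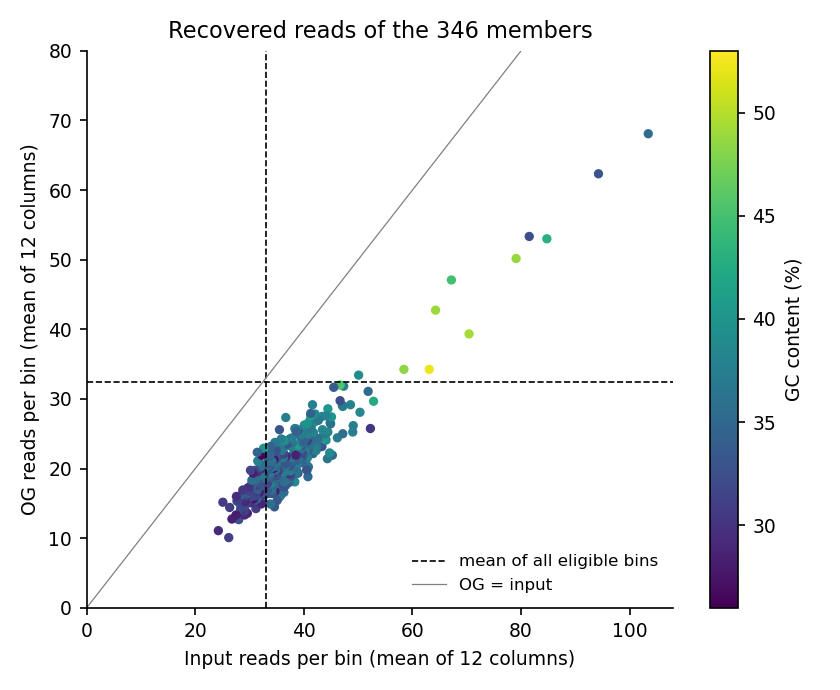
Recovered OG reads (y axis) against recovered input reads (x axis) of each member, as means of 12 columns, colored by GC content. Dashed lines are the means of eligible bins, 32.4 OG and 33.0 input reads, and the grey line marks equal reads. All members lie below the grey line, and a separate tail runs up to 103.4 input reads.

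In 15 members the input was more than 1.5 times that of eligible bins, and 11 of them also had more OG reads than the eligible mean. The member with the most input reads was chr5:737001-738000 in an intron of ZDHHC11B, a palmitoyltransferase family gene, with 103.4 input and 68.1 OG reads. It was followed by chr21:9956001-9957000, in the short arm of an acrocentric chromosome, with 94.3 and 62.3 reads, and by chr8:140195001-140196000 in an intron of TRAPPC9, a gene of a vesicle tethering complex, with 84.8 and 53. AXIN1, which encodes a scaffold of the beta-catenin destruction complex, held another such bin, with 79.1 input and 50.2 OG reads.

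Repeated sequence was frequent in members. On average 26.9 % of the 32-mers of a member occurred elsewhere in the genome, against 13.6 % in eligible bins, and in 75 members (21.7 %, against 6.65 %) at least 50 % of them did. Between 30 and 38 % GC, the density of members was 9.85 per 100000 bins where under 1 % of 32-mers were repeated, 33.4 at 1 to 25 %, 116.1 at 25 to 50 %, 150.4 at 50 to 75 % and 87.4 at 75 to 100 %. In the other bins of the same GC range the mean value was 5.95, 5.57, 4.74, 4.34 and 5.40 in these classes, lowest where the density of members was highest.

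Nearly all members were single bins. They formed 345 runs, of which 344 were single bins, and the only adjacent pair was chr4:94423001-94425000, 27.4 kb or more from PDLIM5, a gene for a cytoskeletal adaptor. The share of members with an adjacent member was thus 0.578 % (95 % exact binomial interval 0.0701 to 2.07 %). The interval treats members as independent, although the adjacent members came as 1 pair, so nothing is read from its width. The median distance to the next member on a chromosome was 3973 kb. Another member lay within 10 kb for 6 members, within 100 kb for 12 and within 1000 kb for 85. The spacing that their density alone would give was not counted, so no clustering or scatter is read from these counts. Of 2637 windows of 1 Mb, 2316 held no member, 300 held 1 and 21 held 2. 8 members (2.31 %) lay within 1 Mb of a chromosome end, against 1.29 % of eligible bins.

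In the adjacent pair, the value of the left bin in WT was 5.47, -0.967 and -11.7, in MUTYH-/ -17.0, -10.3 and 4.90, in OGG1-/ -10.6, -1.99 and 2.94, and in DKO -14.3, -16.1 and 1.18. The value of the right bin in WT was -13.4, -12.3 and -5.26, in MUTYH-/ -15.7, 8.09 and 2.94, in OGG1-/ -14.8, 2.46 and -2.24, and in DKO -2.92, -13.1 and -12.6. In the left bin each genotype had values on both sides of 0. In the right bin all WT and DKO columns were below 0, and MUTYH-/ and OGG1-/ had values on both sides.

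Among the chromosomes, chromosome 6 held the most members, 38, or 22.6 per 100000 eligible bins. Chromosome 12 followed with 19.2 and chromosome 5 with 18.3, and the GC-rich chromosomes 16, 17 and 19 had 6.34, 6.40 and 7.29. GC content did not order the chromosomes throughout, since the AT-rich chromosome 13, at 38.5 % GC, also had 7.29 and chromosome 20, at 44 % GC, had 14.8. Chromosome 22 had no member in 34620 bins. By the centre of the bin, 162 members (46.8 %) were intergenic, against 36.1 % of eligible bins, and 179 (51.7 %) were intronic, against 57.3 %. Only 3 members lay in an exon (0.867 % against 3.87 %) and 2 in a promoter, the window from 1000 bp before to 100 bp after a transcript start (0.578 % against 2.76 %). The members in introns had a mean GC content of 35.2 % and those between genes 34.5 %, so that the AT-rich composition was common to both.

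Of 60644 genes, 207 held a member, and 6 held 2: EXOC6B, an exocyst component, TRAPPC9, LRBA, a gene for vesicle trafficking in immune cells, the long non-coding LINC02934, DLGAP2, which encodes a postsynaptic scaffold, and ROBO1, an axon guidance receptor. These genes span 650.1 to 1170.8 kb, so that 2 members were 0.171 to 0.308 % of the bins of a gene. The other genes first by members, each with 1, were the short genes TCP1P1, LRRC57, LNCPOIR, ENSG00000228826, IDNK, MYCT1, SELENOT, ENSG00000286253 and ZNF404, in which 1 bin is 3.45 to 14.3 % of the gene. None of the 22 base excision repair genes, including OGG1, MUTYH and NEIL1 to NEIL3, held a member, and the olfactory receptor, histone and ribosomal RNA genes held none either. These lists span only 518, 3071, 603 and 76 eligible bins, fewer than are needed for 1 member at the mean density of 13.2 per 100000 bins, so that nothing is read from their zeros. Genes with a zinc finger symbol, the antisense genes ZNF32-AS3 and ZNF385D-AS1 among them, held members in 4 of 668 genes and 22925 bins. LINC genes held 13 members in 123731 bins, and all genes 213 in 1890996, where a bin in overlapping genes counts for each gene.

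The members that were low in the most columns show what recurrence means in these data. The bin chr2:170632001-170633000, in an intron of MYO3B, which encodes an unconventional myosin, was low in 9 columns. Its value in WT was -11.5, 12.4 and -15.8, in MUTYH-/ -21.2, -9.40 and 3.23, in OGG1-/ -19.9, -9.99 and -15.4, and in DKO -13.1, -14.5 and 6.95. All genotypes had low columns, and only OGG1-/ had 3 of 3. It had 19.8 OG and 40.6 input reads per column, and 72.7 % of its 32-mers were repeated.

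The bin chr3:21557001-21558000, in an intron of ZNF385D, a zinc finger gene, was low in 8 columns. Its value in WT was -7.88, -10.7 and -6.10, in MUTYH-/ -18.3, -20.2 and -9.41, in OGG1-/ -17.3, 3.45 and 4.45, and in DKO -8.27, -12.5 and -11.9. Only a pair of OGG1-/ columns rose above 0. The other bins with 8 columns were chr17:73696001-73697000, with a mean of -8.12 ± 15.6 (SD over 12 columns), and chr6:90883001-90884000, with -4.65 ± 13.4, both intergenic. In chr6:90883001-90884000 the 3 WT columns lay between -12.3 and -10.7, while MUTYH-/ ranged from -20.8 to 20.4.

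The next 6 members were low in 7 columns and had means from -11.5 to -9.46. They were chr14:19944001-19945000, 7.74 kb from the olfactory receptor gene OR4K1, chr6:150477001-150478000, chr20:31986001-31987000 in XKR7, chr2:194543001-194544000 in LINC01821, chr4:167545001-167546000 and chr4:45998001-45999000. Of the 10, only the bins in MYO3B and ZNF385D held a shared 24-mer. The lowest column of the 10 was -40.9, in replicate 1 of DKO in the XKR7 bin, which at the same time had 16.6 in replicate 2 of WT.

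The rule needs 6 low columns and a genotype has only 3, so every member must be low in at least 2 genotypes. 240 members had a low column in every genotype, 103 in 3 genotypes and 3 in 2. The split that the rule alone would give was not counted, so nothing is read from these numbers. The share of members at or below the threshold was 47.1 ± 8.36 % per column in WT (SD, n = 3) and 53.3 ± 6.50 % in MUTYH-/, with 52.0 ± 6.01 % in OGG1-/ and 52.4 ± 1.92 % in DKO. It was lowest in replicate 2 of WT, at 37.6 %, and highest in replicate 1 of MUTYH-/, at 59.8 %. The lowest genotype mean of a member was in WT for 39 members, in MUTYH-/ for 101, in OGG1-/ for 97 and in DKO for 109.

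**Figure D3:**
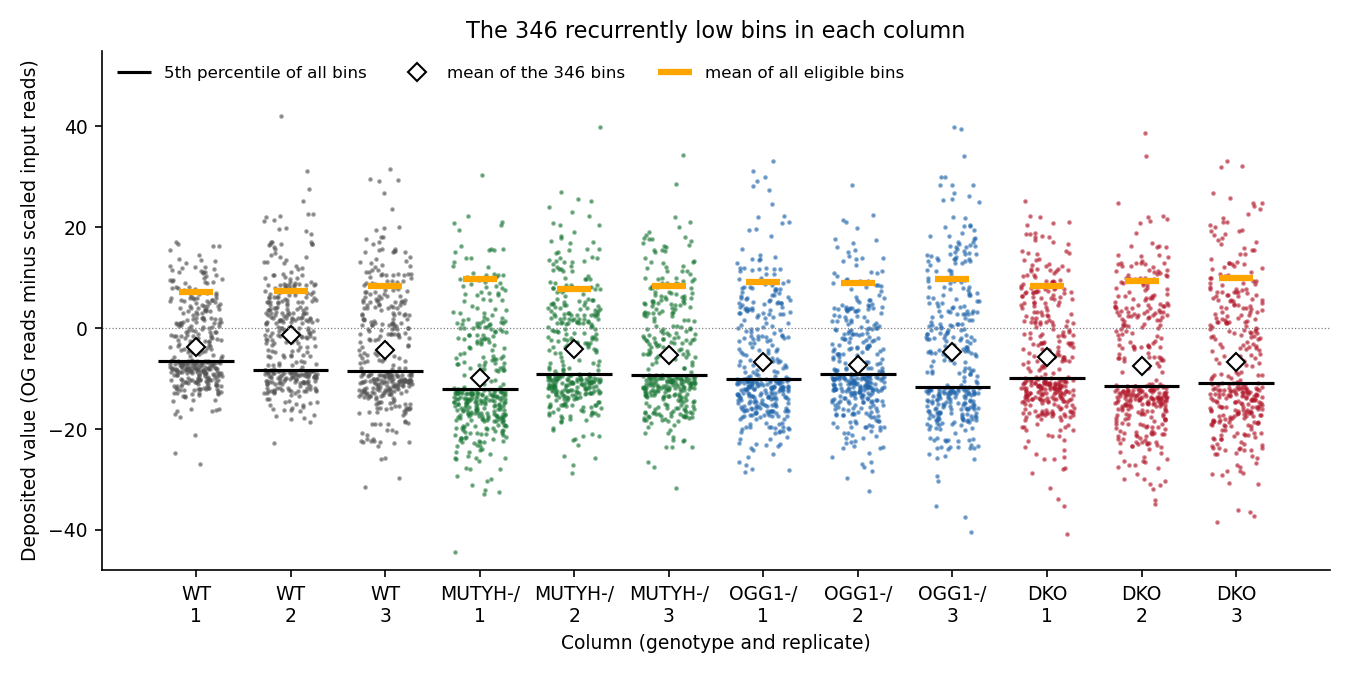
Deposited values (y axis, OG reads minus scaled input reads) of the 346 members in each of the 12 columns (x axis). Each point is a bin, diamonds are member means, black lines the 5th percentile of all bins and orange bars the mean of eligible bins. Member means lie between -9.86 and -1.28, and points above 0 occur in every column.

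The member mean was -3.66, -1.28 and -4.25 in the 3 columns of WT, -9.86, -4.08 and -5.39 in MUTYH-/, -6.60, -7.20 and -4.66 in OGG1-/ and -5.75, -7.44 and -6.67 in DKO. The eligible mean was 7.63 ± 0.672 (SD, n = 3) in WT and 8.62 ± 0.975 in MUTYH-/, with 9.27 ± 0.444 in OGG1-/ and 9.26 ± 0.766 in DKO. WT was thus the least negative in members and the lowest in eligible bins, which is also the genotype with the lowest OG depth.

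After scaling of each column to the mean column total, the member mean was -3.46 ± 1.70 in WT (SD, n = 3) and -6.33 ± 2.24 in MUTYH-/, with -5.81 ± 1.5 in OGG1-/ and -6.23 ± 0.610 in DKO. The differences from WT were -2.87, -2.35 and -2.77, with an SD of the difference of 2.81, 2.26 and 1.81. With replicate 2 left out in all genotypes, OGG1-/ differed from WT by -0.754 and DKO by -1.44. On the log2 ratio of OG to input reads the sign turned, to 0.39, 0.38 and 0.55. They share the WT columns and the members were selected on all 12 columns, so that no p is given. All 3 columns of MUTYH-/ and of DKO, and 2 of OGG1-/, were below the lowest WT column.

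On the ratio of reads, the WT mean lay between those of the knockouts. The ratio of OG to input reads in members divided by that in eligible bins was 0.576 ± 0.0610 in WT and 0.560 ± 0.0231 in MUTYH-/, with 0.578 ± 0.0645 in OGG1-/ and 0.603 ± 0.00863 in DKO. The columns of MUTYH-/, at 0.534 to 0.577, lay below those of DKO, at 0.596 to 0.613, and those of WT, at 0.508 to 0.624, spanned both. WT had the fewest OG reads per eligible bin, 21.1 to 30.5, against 26.7 to 40.3 in the knockouts. The part of this depth in the differences of the values was not tested.

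Single members were compared with WT by a linear model for each bin over 2805354 bins, with limma. A call was an unadjusted p of at most 0.01. In MUTYH-/, 13 members (3.76 %) were called, against 0.974 % of all bins tested. Of these, 11 were lower and 2 higher, against 0.517 % and 0.457 % of all bins. In OGG1-/, 11 members (3.18 %) were called, against 0.811 %, with 8 lower and 3 higher, against 0.424 % and 0.387 %. In DKO, 13 members (3.76 %) were called, against 0.925 %, with 10 lower and 3 higher, against 0.499 % and 0.426 %. The rule used these columns, so nothing is read from the distance to the background.

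No member passed the Benjamini-Hochberg adjustment over all bins with limma, the lowest adjusted p being 0.983 in MUTYH-/. An unadjusted limma p under 0.05 was found for 48, 34 and 44 of the 346 members in MUTYH-/, OGG1-/ and DKO. Of all bins, 5.055, 4.499 and 4.869 % had one. The members were chosen on these columns, so nothing is read from the distance between them and all bins. With variances moderated without a trend, 2 of the 346 members were called in each contrast, against 28077, 23673 and 26175 of the 2805354 bins. The number of called members thus rested on the trend. The median SE of the difference in MUTYH-/ was 8.98 in members without the trend, against 7.24 with it. 33 members were called in at least 1 contrast, 4 in 2 or more and 0 in all 3. The same overlap was not counted over all bins, and the 3 contrasts share the WT columns, so nothing is read from these counts.

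The members with the largest differences from WT were these. In MUTYH-/, the largest loss was at chr21:9956001-9957000, where the value was 5.94, 10.2 and 19.8 in WT and -44.4, -27.1 and -10.9 in MUTYH-/. The scaled difference was -40.3 ± 8.70 (SE, limma, adjusted p = 0.983). The groups did not overlap, in a bin with 94.3 input reads per column. The next loss was at chr5:43777001-43778000, at -28.0 ± 8.03. The largest gains were at chr16:67051001-67052000 in an intron of CBFB, a subunit of the core binding factor, at 24.4 ± 7.79, and at chr2:72245001-72246000 in EXOC6B, at 22.9 ± 7.75.

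In OGG1-/, the largest losses were at chr12:107536001-107537000 in ABTB3, at -24.1 ± 6.68, and at chr2:153184001-153185000, at -23.1 ± 7.86. The largest gain was at chr12:38347001-38348000, between genes, where WT had -14.4, -10.9 and -11.6 and OGG1-/ had 31.2, 5.12 and 6.94, a scaled difference of 27.7 ± 7.08. The next was at chr16:334001-335000 in AXIN1, at 25 ± 8.52. In that bin OGG1-/ had 24.5, -11.3 and 39.5, so that the groups overlapped.

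In DKO, the largest loss was at chr1:27276001-27277000 in WDTC1, which encodes a WD repeat protein. WT had 5.70, 10.5 and 15.7 there and DKO had -12.6, -27.2 and -21.2, a scaled difference of -30.8 ± 7.76. The next was at chr6:56396001-56397000, 2.41 kb from COL21A1, a collagen gene, at -27.9 ± 7.89. The gains were 20.8 ± 6.30 at chr1:177454001-177455000 and 19.8 ± 7.41 at chr10:15945001-15946000. With adjustment, the lowest p among members was 1 in OGG1-/ and 0.999 in DKO.

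Members were not chosen on the values of the bins around them. At 1 kb to the left and right, the mean over 12 columns was 3.37 ± 1.06 and 3.66 ± 1.22 (SD), against 6.66 and 6.83 for eligible bins of the same GC content. It was lower in 12 of 12 columns on both sides. The counting tool counts a read in each bin it overlaps, so that neighbors share the reads at the border, and their part in these values was not tested. Bins at 2 kb do not share reads with a member. They had 6.05 ± 0.731 and 6.04 ± 0.973, against 7.53 and 7.77 at the same GC content, again lower in 12 of 12 columns.

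**Figure D4:**
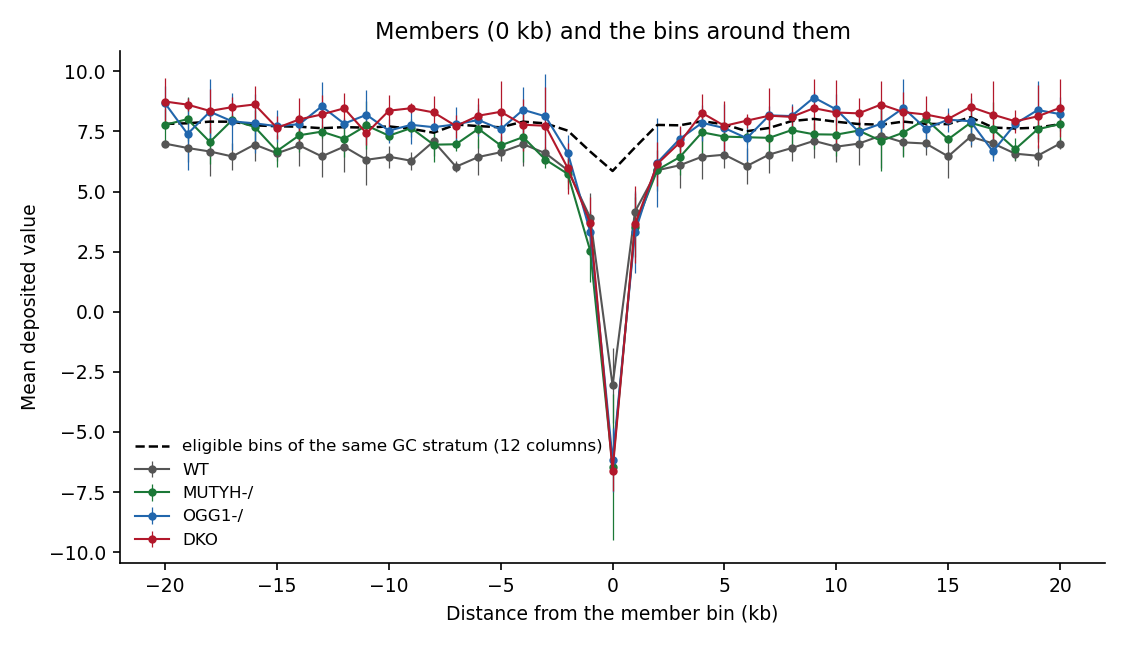
Mean deposited value (y axis) of the members, at 0 kb, and of the bins up to 20 kb away (x axis) by genotype, with the SD of 3 columns as bars. The dashed line is the mean of eligible bins of the same GC stratum over 12 columns. The lines dip most within 2 kb of the members, with 6.05 and 6.04 at 2 kb, and smaller gaps to the dashed line remain at some greater distances.

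Beyond that the values came closer to those at the same GC content. They were 7.20 and 6.69 at 3 kb, against 7.84 and 7.76 at the same GC content. At 5 kb they were 7.37 and 7.30, against 7.67 and 7.80, and lower in 9 and 11 columns. At 10 kb they were 7.42 and 7.73, against 7.71 and 7.90, and lower in 10 and 7 columns. OG reads were reduced at 1 kb, to 27.2 and 27.5, while input reads were 33.1 and 33.2, near the eligible mean of 33.0. The dip was present with and without the shared 24-mers. Around members without one, the values at 2 kb were 6.11 and 6.16, against 7.26 and 7.48 at the same GC content, and around members with one 5.82 and 5.6, against 8.55 and 8.85. Each of these 4 pairs was lower in 11 or 12 columns.

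To read a genotype in columns that the choice had not used, bins were also chosen on the 9 columns of the other genotypes, as low in at least 5 of 9. There were 598 such bins when WT was held out, 465 with MUTYH-/ held out, 455 with OGG1-/ and 480 with DKO. In the held-out columns the mean value was 2.91 ± 1.12 in WT (SD, n = 3) and 1.99 ± 1.64 in MUTYH-/, with 2.09 ± 0.829 in OGG1-/ and 2.24 ± 0.639 in DKO. Eligible bins of the same GC content had 5.41, 5.80, 6.15 and 6.46. The means of the chosen bins were above 0 in every held-out genotype, while those of members in the columns that chose them were below 0.

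The share at or below the 5th percentile of the held-out columns was 10.6 ± 2.85 % in WT and 11.7 ± 2.89 % in MUTYH-/, with 13.5 ± 1.43 % in OGG1-/ and 13.0 ± 0.670 % in DKO. At the same GC content it was 6.28, 6.41, 6.81 and 6.55 %. In WT the columns were 12.4, 7.36 and 12.2 %, and in DKO 12.5, 13.8 and 12.7 %. The low state therefore recurred in a held-out genotype above the level of GC content, in a minority of the bins. The 3 WT columns lay below the 3 DKO columns, while MUTYH-/ overlapped with all the other genotypes. The bins chosen differ between the held-out genotypes, and the difference was not tested.

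**Figure D5:**
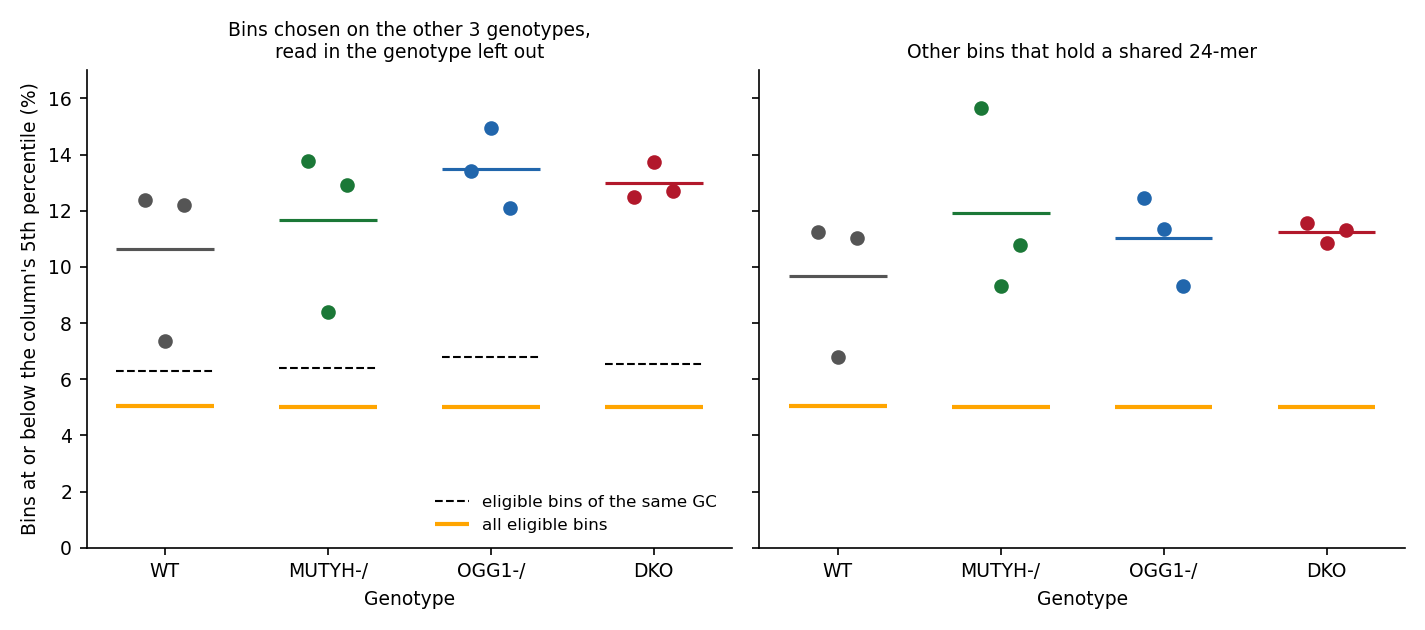
Share of bins at or below the 5th percentile of a column (y axis) by genotype (x axis), with a point per column and a line at the mean. On the left are bins chosen on the other genotypes, and on the right other bins with a shared 24-mer, with orange lines at 5.01 to 5.04 % for eligible bins and dashed lines at 6.28 to 6.81 % for the same GC content. All points lie above the orange lines, the lowest being 6.80 % in replicate 2 of WT on the right.

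In the held-out columns the OG reads were 0.787 ± 0.0418 times the eligible mean in WT and 0.796 ± 0.0482 in MUTYH-/, with 0.795 ± 0.0277 in OGG1-/ and 0.828 ± 0.00611 in DKO. Input reads were 0.969 ± 0.0274, 0.999 ± 0.0109, 1.00 ± 0.0155 and 1.02 ± 0.0120 times the eligible mean. OG reads were thus below the eligible mean in columns that had not chosen the bins, and input reads were near it over all the chosen bins. The chosen bins had a mean GC content of 34.6 to 35.5 %. Eligible bins of 34.8 to 35.8 % GC had 28.2 OG and 30.9 input reads, against 32.4 and 33.0 in all eligible bins. The part of GC content in these ratios was not tested. Bins with a shared 24-mer had more input in the held-out columns, at 1.05 ± 0.0492, 1.13 ± 0.0379, 1.06 ± 0.0504 and 1.08 ± 0.0453 times the eligible mean, and those without one had 0.951 to 1.01 times. Bins with a shared 24-mer were low in 14.6 to 18.6 % of held-out cases, depending on the genotype, and those without one in 9.78 to 12.5 %. The 24-mers were listed from the members, which were chosen on all 12 columns. The split by them is thus not independent of the held-out columns, and nothing is read from it.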

How the data were processed

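The table covers 12 OG-seq pull-down samples and their 12 inputs from HAP1 cells, with 3 columns for each of 4 genotypes. The authors trimmed adapters with cutadapt 2.8, mapped reads to GRCh38 with Bowtie2 2.3.5.1, marked duplicates, counted reads in 1000 bp bins with bedtools, removed blacklisted and incomplete bins, scaled input counts by signal extraction scaling and subtracted them from the OG counts. The deposited values are a score on the scale of OG reads. Whole OG reads and whole reads of 2 input runs were solved from each value (tolerance 1e-07), which failed for at most 7 bins per column. A column totalled 59602237 to 113915679 OG reads, with 78621690 to 101608128 input reads. The precision of a single bin is limited by this depth, and intervals cover counting error only.

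Members were taken by the rule given in the report. Members and lists were chosen with earlier results of these data known. GC content, motifs, repeated 32-mers and shared 24-mers were read from GRCh38 and genes from GENCODE 44, both strands for motifs. GC content needed at least 500 called bases. Values at the same GC content are means of eligible bins in 20 strata of about equal size, weighted by the strata of the bins compared. Each bin was fitted with limma 3.58.1 in R 4.3.3 on values scaled to the mean column total, with trended variances, at unadjusted p of at most 0.01, and tested on simulated data. The authors used edgeR on values floored at 0, which was not followed because the values are not counts and members lie below 0. The other steps used matplotlib 3.10.9, numba 0.67.0, scipy 1.17.1, pandas 2.3.3 and numpy 2.4.6 in Python 3.11.15. The rule for named bins took the 10 members with the most low columns (ties by lowest mean), the runs with the most bins, the 2 largest gains and losses among the calls of each contrast and the 15 genes with the most members. All but 1 of the runs were single bins, so only the pair is given. The alternatives changed the percentile, the columns required, the ranked quantity, the scaling, the variances, the block and the filter. The ratio relative to eligible bins, the shared 24-mers and the split by them were chosen after seeing the data. The letters of the shared 24-mers are not reported here. RNA-seq and mass spectrometry were not analysed here.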

Additional observations from a re-analysis of the deposited data

Results flagged for a closer look

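Bins outside the rule also met its threshold, in data that the comparisons did not use. On chromosome X, 31 of 146921 bins with a value were at or below the 5th percentile in at least 6 columns (0.0211 %), with a mean GC content of 35 %. In the chromosome 15 segment it was 30 of 29515 bins (0.102 %), with a mean GC content of 34.1 %. The share in eligible bins was 0.0132 %. The bins were found by the threshold that chose the members, so that the counts are a description. The bins of the chromosome 15 segment that met the threshold had 41.5 OG and 65.5 input reads per column, against 68.1 and 67.6 over the whole segment. Those on chromosome X had 19.4 and 34.8, against 29.6 and 31.2. In both, as in the members, OG reads were fewer than over all bins of the group. The threshold picks bins with few OG reads for their input, so nothing is read from this. Groups of 3 columns were not examined for outlying samples.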

How the results depend on the processing

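The number of bins depended on every threshold: 1 at the 1st percentile, 7569 at the 10th, 14211 with at least 4 columns, 4 with at least 8, 1067 on the log2 ratio of OG to input reads (208 of them members), 200 with values centred within GC strata and 407 with the excluded regions kept. Without replicate 1 of each genotype it was 220, and over the 3 such sets 220 to 280, of which 92 to 126 were members. Mean GC content was 43.1 % (1 bin) at the 1st percentile, 38.8 % with at least 8 columns, 47.4 % with GC centring, 32 % on the log2 ratio and 34.3 to 35.8 % otherwise. The share of adjacent members was 0 % at the 1st percentile and with at least 8 columns, 4.48 % at the 10th percentile and 5 % with GC centring.

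Called members in MUTYH-/, OGG1-/ and DKO numbered 0, 0 and 0 after adjustment with limma (1, 0 and 1 of all bins). Without a trend they numbered 2, 2 and 2 (28077, 23673 and 26175 of all 2805354 bins). With GC centring they numbered 8, 3 and 7 (28694, 23481 and 26812 of 2805294 bins). On log2(value + 1) they numbered 0, 0 and 0 (17337, 15250 and 16840 of 2802495 bins), where 295 members passed the filter and values below 0 were set to 0. Leaving out a replicate gave 11 to 15, 8 to 10 and 13 to 15 members, against 23522 to 28088, 20760 to 22699 and 22936 to 27229 of all bins. With the column number as a replicate block there were 14, 11 and 13 members, against 27325, 22701 and 25895 of all bins. The deviations of columns of the same number from their genotype means had r from -0.0152 to 0.00971 (18 pairs). For columns of different number r was -0.0119 to 0.0178 (36 pairs). At the depth of single bins, such r cannot decide whether columns of a number share an experiment. The difference of the member mean ranged from -3.68 to -2.13, from -3.65 to -0.754 and from -3.45 to -1.44 with a replicate left out, the smallest in OGG1-/ without replicate 2. On the log2 ratio of summed reads it was 0.394, 0.382 and 0.547, and relative to eligible bins -0.0353, 0.00370 and 0.0708, so that its sign rests on the scale. The depth, 21 to 40.2 OG reads per bin, limits the call of a single bin.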
